A study of Homo sapiens with 12 samples.

Results

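The regions described here are 6134 long peaks of RNA immunoprecipitation sequencing (RIP-seq), each of which joined 5 or more exonic blocks into 1 enriched region. They were chosen by their block count from 101848 peaks in 6 lists, and they lay on 2371 of the 10830 genes that had a peak in any list. In this assay an antibody pulls a protein down together with the RNA it holds, and reads from that RNA are set against reads from input RNA kept back beforehand. A block is an exonic stretch of a peak, so the block count is the number of pieces into which introns divide the peak on the genome. The cells were HepG2, a line established from a human liver cancer, infected with pmiRNA1-3XFlag-METTL16, pSIN4-3XFlag-eIF3a or pSIN4-3XFlag-eIF3b to give stable lines that overexpress a Flag-tagged protein. There were 2 replicates for each of the 3 proteins, each with its input, and all cells were cross-linked with ultraviolet light. Per the labels, METTL16 and eIF3b were pulled down with a Flag antibody and eIF3a with an antibody against eIF3a itself, whereas the names of the lists say flag for all 6, so antibody and protein cannot be told apart for eIF3a. A control antibody was not analysed here, and the overexpressing lines were not compared with unmodified cells.

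METTL16 is an RNA methyltransferase that modifies U6 small nuclear RNA and the MAT2A messenger RNA (mRNA), and it also has roles in the cytoplasm. eIF3a and eIF3b are subunits of translation initiation factor 3, the complex that helps load the small ribosomal subunit onto mRNA. After splicing, the exons of an mRNA lie side by side, so RNA fragments along a stretch of mature mRNA appear on the genome as blocks separated by introns. A peak of many blocks therefore stands for a long stretch of joined exons, or a short stretch that crosses several small exons.

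Sequences of 3 stretches show how members cross small exons. Each joins 5 successive coding exons that lay under a member in all 6 lists, read 5′ to 3′ from GRCh38 with GENCODE release 44 exons, and capitals mark every other exon so that the joins are visible. The stretch of COL27A1, a fibrillar collagen gene, takes exons 8 to 12 (chr9:114205102-114211026, plus strand) and has 243 bases. The stretch of COL9A2, a gene of type IX collagen, takes exons 23 to 27 (chr1:40303807-40304529, minus strand) and has 240 bases. That of DNMT1, the maintenance DNA methyltransferase, takes exons 8 to 12 (chr19:10163326-10173905, minus strand) and has 278 bases. 
COL27A1: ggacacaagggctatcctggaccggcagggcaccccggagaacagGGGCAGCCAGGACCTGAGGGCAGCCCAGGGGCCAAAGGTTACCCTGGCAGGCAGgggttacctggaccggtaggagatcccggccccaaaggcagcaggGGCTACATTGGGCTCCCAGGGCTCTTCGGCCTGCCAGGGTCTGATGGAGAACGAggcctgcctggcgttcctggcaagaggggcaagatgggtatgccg
COL9A2: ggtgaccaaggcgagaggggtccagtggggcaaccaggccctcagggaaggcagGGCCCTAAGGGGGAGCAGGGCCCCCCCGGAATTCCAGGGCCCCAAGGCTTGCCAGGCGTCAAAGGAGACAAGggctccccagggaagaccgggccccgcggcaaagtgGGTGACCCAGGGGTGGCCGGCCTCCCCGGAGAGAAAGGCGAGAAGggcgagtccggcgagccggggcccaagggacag
DNMT1: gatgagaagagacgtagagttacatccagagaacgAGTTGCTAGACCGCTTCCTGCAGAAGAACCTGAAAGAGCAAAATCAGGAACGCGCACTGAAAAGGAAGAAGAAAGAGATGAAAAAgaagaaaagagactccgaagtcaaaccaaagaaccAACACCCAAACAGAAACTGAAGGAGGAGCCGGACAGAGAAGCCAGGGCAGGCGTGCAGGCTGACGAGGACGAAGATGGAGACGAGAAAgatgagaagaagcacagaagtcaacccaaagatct
In both collagen stretches, 5 of 5 exons begin with a glycine codon in frame, and 27 of the 81 codons of COL27A1 and 27 of the 80 codons of COL9A2 encode glycine, the residue that recurs at regular steps along a collagen helix. The DNMT1 stretch has 3 glycine codons among 92 and a GC content of 47.8%, against 66.7% for COL27A1 and 71.2% for COL9A2.

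Longer exons are shown by EIF3A, which codes for one of the immunoprecipitated proteins and had a member in all 6 lists. Its exons are too long for 5 of them to be shown, so 3 junctions that lay under a member in all 6 lists are given, with 15 bases of the upstream exon in lower case and 15 bases of the downstream exon in capitals. They lie at chr10:119050660-119051213, chr10:119042758-119044068 and chr10:119037295-119038252 on the minus strand of GRCh38.
EIF3A exons 15 and 16: cagtctgtttatgagGAAAAACTTAAACAG
EIF3A exons 18 and 19: aggcccgccagagaaGGAGTGGAGACGTGG
EIF3A exons 20 and 21: cttcagaagacctagGGATGAAGGTGGCTG
The edges of the blocks lay at annotated exon ends. Of 38738 junctions between successive blocks of the members, 38620 (99.7%) matched an intron of GENCODE release 44 exactly. Block edges may have been taken from a gene annotation when the peaks were called, so this match does not measure splicing in the reads.

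Both METTL16 lists held fewer members than any eIF3a or eIF3b list. The share of peaks differed more between the eIF3a lists than between the means of the proteins. METTL16 had 501 members in replicate 1 and 749 in replicate 2, which were 3.8% and 5.7% of its peaks. eIF3a had 927 and 1396, or 4.27% and 10.8%, and eIF3b had 1444 and 1117, or 6.93% and 5.58%. By protein, the mean shares were 4.75% ± 1.35 in METTL16, 7.53% ± 4.62 in eIF3a and 6.25% ± 0.958 in eIF3b (SD, n = 2 lists each). The SD of the eIF3a lists exceeded every difference between these means, and no difference between the proteins was detected (exact permutation test over the 6 lists, two-sided, p = 0.733, smallest possible p 0.0667). The eIF3a mean minus the METTL16 mean was 2.79 percentage points, and -0.483 without eIF3a replicate 2. Being long, the members held a larger part of the enriched bases, between 13.3% (METTL16 replicate 1) and 33.9% (eIF3a replicate 2).

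**Figure D1:**
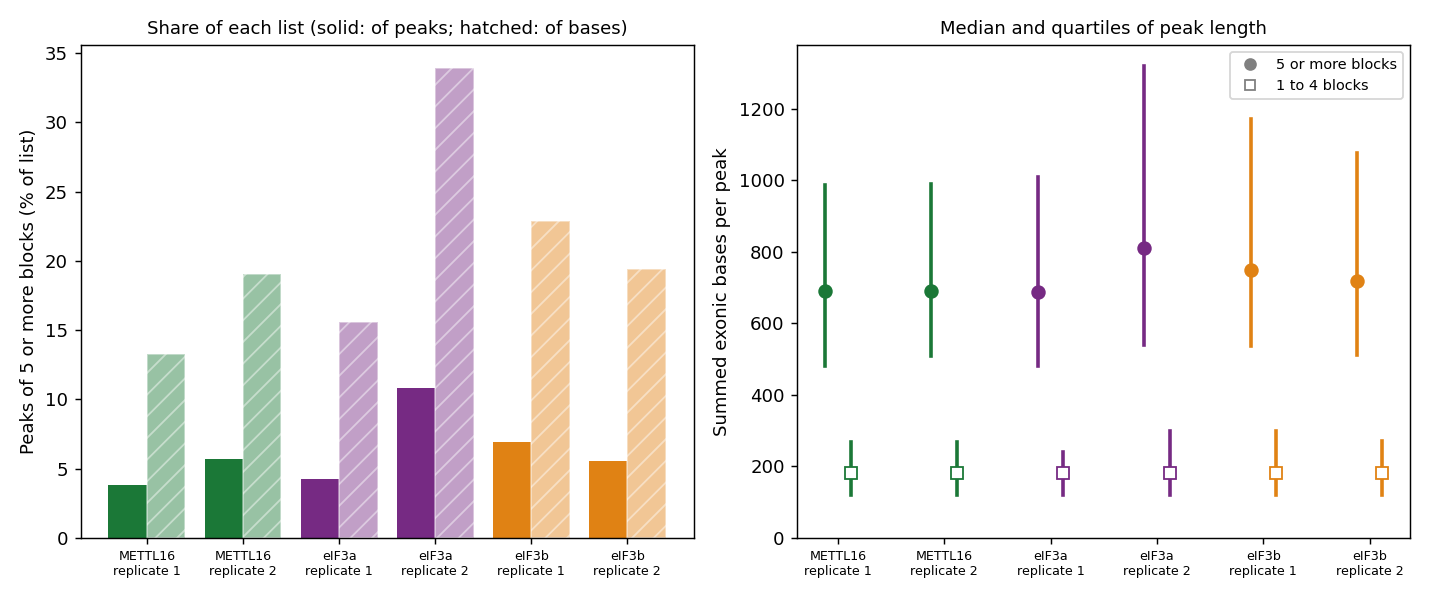
Left, the share of peaks with 5 or more blocks in each of the 6 lists, as a percent of its peaks (solid bars) and of its peak bases (hatched bars). Right, summed exonic bases per peak, with medians (circles for 5 or more blocks, squares for 1 to 4 blocks) and lines from the first to the third quartile. eIF3a replicate 2 stands highest in both panels, and the medians of the members lie between 688 and 809.5 bases in every list.

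Summed over its blocks, a member was several times as long as the other peaks, a difference that the choice on block count builds in. The median was 691 and 689 bases in the METTL16 lists, 688 and 809.5 in the eIF3a lists, and 748 and 718 in the eIF3b lists, against 180 or 181 for peaks of 1 to 4 blocks. No difference of the medians between the proteins was detected (exact permutation p = 0.6), and the eIF3a excess over METTL16 of 58.8 bases became -2 without eIF3a replicate 2. The longest member of a list had between 6204 and 8909 bases, and from 24.2% to 38.4% of the members reached 1000 bases. The median block count was 6 in every list and the largest lay between 36 and 61. Not all members were long: from 18.6% to 26.9% had fewer than 500 bases, the shortest had 119, and from 14.4% to 19.2% held at least 1 block of under 10 bases.

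At the edge of the choice, peaks changed gradually. Peaks of 4 blocks, just outside, had median lengths of 359 to 390 bases and median enrichments over input of 2.91-fold to 3.62-fold across the lists. Peaks of 5 blocks, just inside, had medians of 481 to 538 bases and 3.43-fold to 3.92-fold. IGF2, the gene of insulin-like growth factor 2, lay just outside with a peak of 4 blocks in each of the 6 lists. It covered 4546 to 4606 bases, and its enrichment ran from 78.8-fold in METTL16 replicate 2 to 728-fold in eIF3a replicate 2. The block count therefore leaves out long peaks on genes with few exons.

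Within the mRNA, the members lay in the coding sequence. Coding bases made up 90.8% to 92.6% of their bases in the 6 lists, against 48.3% to 66.7% for peaks of 1 to 4 blocks. Since most 3′ UTRs lie in 1 exon, peaks of 2 to 4 blocks are the closer comparison, and their coding share was 86.7% to 90.04%. Coding share was 91.0% ± 0.2 in METTL16, and the eIF3a mean was 1.45 percentage points higher (SD, n = 2 lists). No difference between the 3 proteins passed the threshold of 0.05, which 6 lists cannot reach (exact permutation test, two-sided, p = 0.0667, the smallest possible), and Benjamini-Hochberg adjustment over the 5 tests gave an exact permutation p of 0.167. Between 58.3% and 66.0% of members were wholly coding, less than the 72.0% to 82.3% of peaks of 2 to 4 blocks. For peaks of 1 to 4 blocks the share was 45.7% to 55.1%. From 27 to 103 members per list covered over 90% of the coding sequence of their gene.

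The midpoint of the members, measured along the merged exons of the gene from its 5′ end (0%) to its 3′ end (100%), had a median of 43.4% and 45.5% in the METTL16 lists. It was 41.4% and 34.0% in the eIF3a lists and 44.3% and 42.7% in the eIF3b lists. eIF3a replicate 2 was thus the most 5′ of the 6, and no difference between the proteins beyond the spread of the lists was detected (exact permutation p = 0.133). Peaks of 1 to 4 blocks had later medians, 48.0% to 57.1%, and those of 2 to 4 blocks had medians of 38.3% to 41.9%. The start codon lay within 14.7% to 19.5% of the members. The stop codon lay within 10.9% of the members of eIF3a replicate 2, against 20.3% to 25.5% in the other 5 lists. Among peaks of 2 to 4 blocks, the start codon lay within 6.85% to 13.2% and the stop codon within 6.59% to 10.2%. Members are longer by the choice on block count, and the part of length in these shares was not tested.

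**Figure D2:**
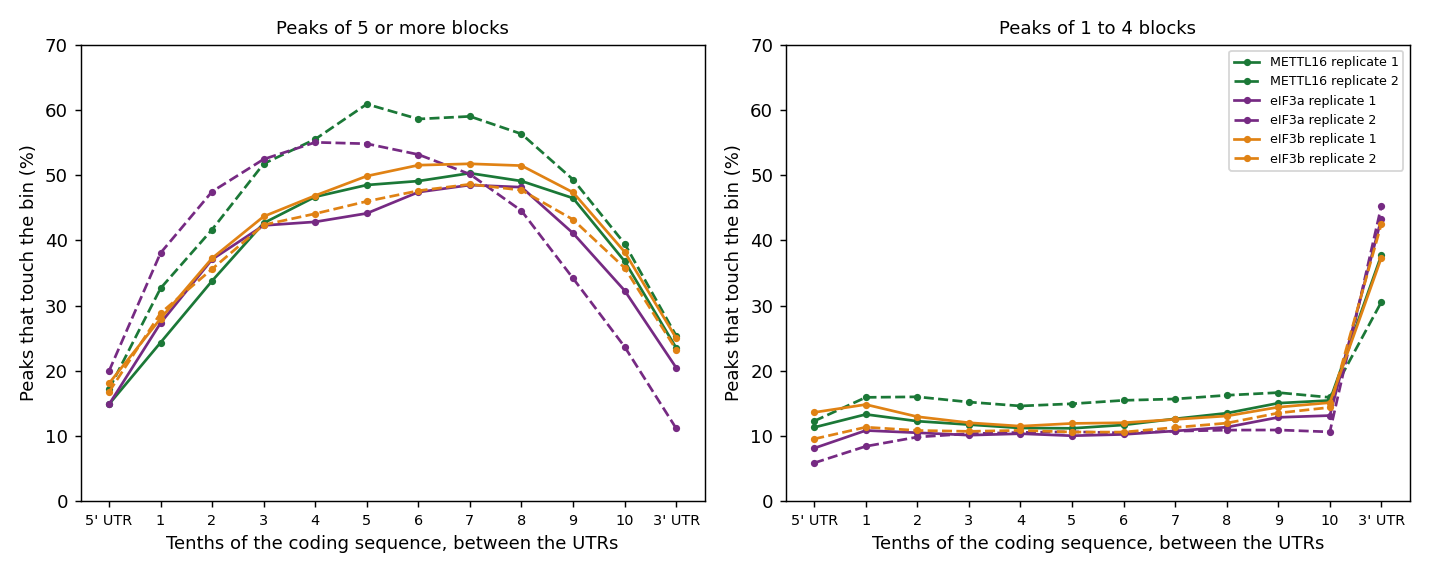
Share of peaks that touch the 5′ UTR, each of 10 equal parts of the coding sequence and the 3′ UTR of the canonical transcript, for members (left) and peaks of 1 to 4 blocks (right), 1 line per list (solid for replicate 1, dashed for replicate 2). Members touch the middle of the coding sequence more often than its ends, and eIF3a replicate 2 falls to 11.2% in the 3′ UTR, where peaks of 1 to 4 blocks reach 30.6% to 45.3%.

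The genes that carried members had many exons. Among genes with a peak and 1 to 4 exons in the canonical transcript, at most 0.179% had a member in any list. The share was 3.68% to 10.5% for 5 to 9 exons, 9.94% to 26.0% for 10 to 19, 11.9% to 35.1% for 20 to 29, and 16.17% to 45.4% for 30 or more. METTL16 replicate 2 was the exception to the rise, with 18.4% at 20 to 29 exons and 16.17% at 30 or more. A gene with more exons has more chances to meet a minimum of 5 blocks, so this order is partly given by the choice itself.

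**Figure D3:**
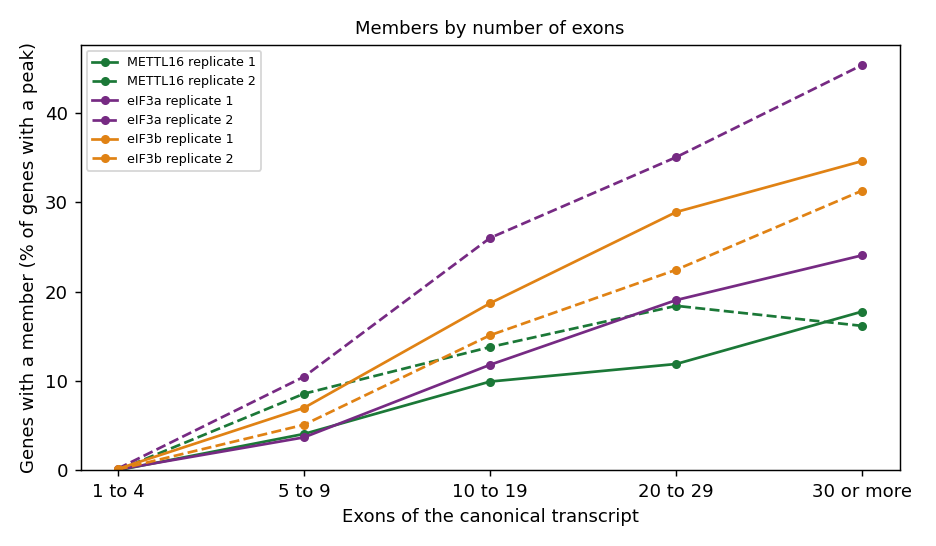
Genes with a member as a percent of the genes with a peak, by the number of exons of the canonical transcript, 1 line per list (solid for replicate 1, dashed for replicate 2). The share is near 0 below 5 exons and reaches 45.4% for genes of 30 or more exons in eIF3a replicate 2.

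Most genes with a member had one in few lists. Each list had members on 428 to 1159 genes and peaks of any block count on 5225 to 8162. How genes with any peak spread over the 6 lists was not computed, so low sharing cannot be called particular to members. Of the 2371 genes, which are 21.9% of the genes with a peak, 1239 had a member in 1 list, 386 in 2, 295 in 3, 223 in 4, 129 in 5 and 99 in all 6. Those 99 genes are 0.914% of the genes with a peak. eIF3a replicate 2 held 620 of the genes with a member in 1 list, which was 53.5% of its own genes with a member, and 580 of the 620 had a peak of 1 to 4 blocks in another list. Without that list, 1751 genes had a member in at least 1 list and 159 had one in all 5.

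Members in both replicates were found on 269 genes for METTL16, 351 for eIF3a and 664 for eIF3b, which are 2.48%, 3.24% and 6.13% of the genes with a peak. For METTL16, these were 62.9% of the replicate 1 genes and 41.1% of the replicate 2 genes. For eIF3a, they were 47.1% and 30.3%, and for eIF3b 57.5% and 74.9%. Of them, 20 of the METTL16 genes (7.43%), 32 of the eIF3a genes (9.12%) and 67 of the eIF3b genes (10.1%) had no member in the other 4 lists. A member in any of the 4 takes a gene out of this count, and a shorter peak does not. The same shares over peaks of all block counts were not computed. Whether the lists shared inputs was not stated, so the overlaps between lists are given as counts with no test.

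At the level of bases, a member in one replicate was often covered by peaks of the other, of whatever block count. METTL16 replicate 1 members were covered to 70.8% on average by replicate 2 peaks, and METTL16 replicate 2 members to 57.9% by replicate 1. The eIF3a values were 53.1% and 39.1%, and the eIF3b values 64.7% and 79.8%. Peaks of 1 to 4 blocks were covered to 27.9% to 51.1%. The mean excess of the members was 19.6 percentage points over the 6 lists, and eIF3a replicate 2 was the list in which members were covered less than its other peaks (39.1% against 44.6%). In both eIF3b lists, members were covered most by the other eIF3b list (64.7% and 79.8%, with eIF3a replicate 1 next at 58.9% and 73.8%). In the other proteins a list of another protein came first. METTL16 replicate 1 members were covered to 92.9% by eIF3b replicate 1, more than by the other METTL16 list, and eIF3a replicate 1 members to 78.2% and 78.3% by the eIF3b lists, more than by eIF3a replicate 2. Members of METTL16 replicate 2 and eIF3a replicate 2 were also covered most by eIF3b replicate 1, to 70.2% and 41.4%. The lists differ in size, with 20832 and 20027 peaks in eIF3b against 13199 and 13136 in METTL16 and 21733 and 12921 in eIF3a, and the part of list size in these values was not tested.

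**Figure D4:**
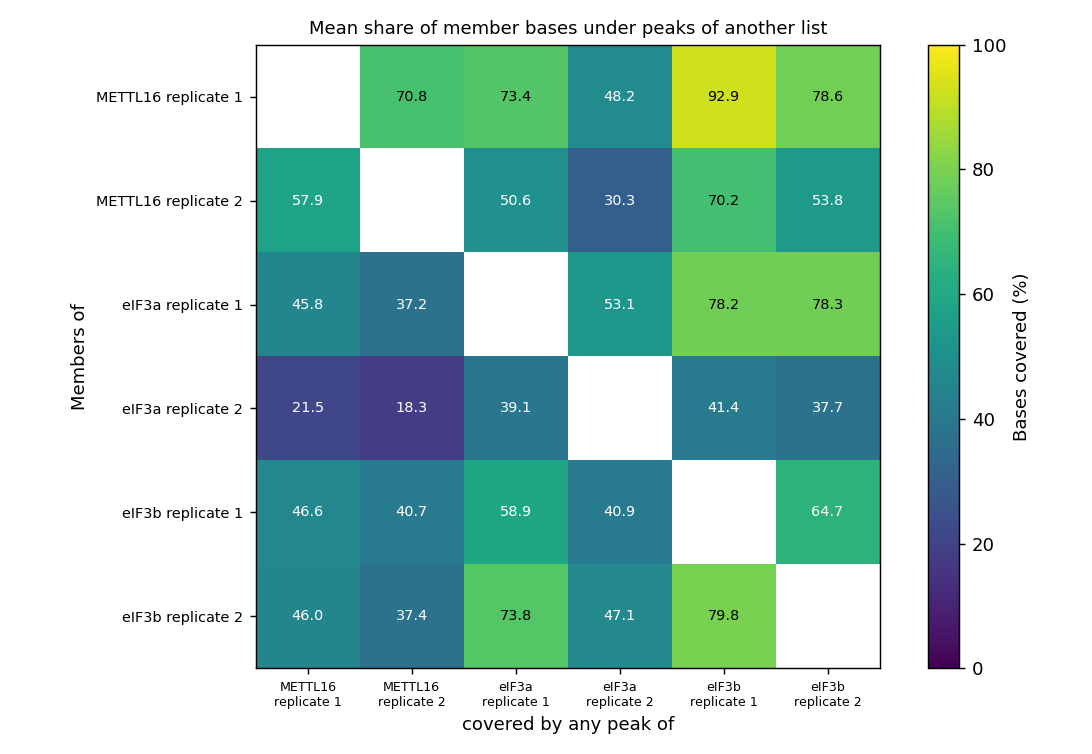
Mean share of the bases of the members of one list (rows) that lie under any peak of another list (columns), in percent. The highest value, 92.9%, is for METTL16 replicate 1 members under eIF3b replicate 1 peaks, and the row of eIF3a replicate 2 runs from 18.3% to 41.4%.

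Where a member had no counterpart of 5 or more blocks in the other replicate, the region was often split or shorter rather than missing. Of the METTL16 replicate 2 members, 38.9% overlapped a member of replicate 1, 50.3% overlapped only peaks of 1 to 4 blocks, and 10.8% overlapped no peak. Of the eIF3a replicate 2 members, 28.1% overlapped a member of replicate 1, 44.8% only shorter peaks and 27.1% no peak. The 674 members of eIF3a replicate 2 on the 620 genes found in that list alone had a median position of 29.01% and a median enrichment of 5.54-fold, and 24.1% contained the start codon. Since these genes were selected by the absence of a member elsewhere, low coverage is partly built in. No peak of METTL16 replicate 1 or 2 touched 71.4% and 75.8% of these members, no peak of eIF3a replicate 1 touched 47.3%, and no peak of eIF3b replicate 1 or 2 touched 51.0% and 51.3%.

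Among the 99 genes with a member in all 6 lists, TTYH3 had the greatest length in the list where its member was shortest. TTYH3 codes for a membrane protein of the tweety family (chromosome 7, 2631961 to 2664802, plus strand). Its member joined all 14 exons in each list and covered 4463, 4493, 4493, 4792, 4493 and 4792 bases, in the order METTL16, eIF3a and eIF3b with replicate 1 first. It held the start codon, the whole coding sequence of 1569 bases and the stop codon, and 4463 bases were common to the 6 lists. The enrichment lay between 9.88-fold and 17-fold, with no separation of the proteins.

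FASN, the gene of fatty acid synthase (chromosome 17, 82078338 to 82098294, minus strand), ranked next by this measure. In the METTL16 lists its longest member had 4650 and 5939 bases, in the eIF3a lists 2760 and 4650, and in the eIF3b lists 5789 and 5579. The member was purely internal: it took exons from 8 to 40 of 43, reached neither the start nor the stop codon, and 5311 coding bases on exons 9 to 39 lay under members of all 6 lists. In eIF3a replicate 1, FASN was divided over 4 members, so the 2760 bases there are the longest of several pieces.

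EIF3A (chromosome 10, 119033670 to 119080817, minus strand) had a member over its 3′ coding exons in every list. It covered 2518 and 1949 bases in the METTL16 lists, 2578 and 2158 in the eIF3a lists and 2578 and 2638 in the eIF3b lists, beginning at exon 11 to 14 and ending in exon 22, the last. The enrichment was 17.2-fold and 4-fold for METTL16, 11.8-fold and 2.9-fold for eIF3a, and 11.9-fold and 9.7-fold for eIF3b, so the METTL16 and eIF3a replicates lay further apart than the means of the proteins. The eIF3a lines also carried the coding sequence of this gene in the vector, and reads of vector and endogenous RNA cannot be told apart within it. The other genes of the immunoprecipitated proteins were different. The METTL16 gene had no member in any list, and its longest peak in each list had 1 or 2 blocks. EIF3B had a member in eIF3b replicate 2 alone, of 5 blocks, 420 bases and 1.35-fold. The METTL16 and eIF3b lines carried these genes in the vector, so the same limit holds for them.

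MYH9, the heavy chain of non-muscle myosin IIA (chromosome 22, 36281280 to 36388010, minus strand), carried members over the 3′ part of its coding sequence. They covered 4257 and 4617 bases in the METTL16 lists, 4197 and 1740 in the eIF3a lists, and 3927 and 3867 in the eIF3b lists. All but that of eIF3a replicate 2 held the stop codon. The METTL16 replicate 2 member began furthest 5′, at exon 13, and covered 74.2% of the coding sequence. Others among the longest were MTSS2, SEPTIN9, SEMA6B, TNRC18 and FOXP4, whose members had between 1944 and 5959 bases.

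**Figure D5:**
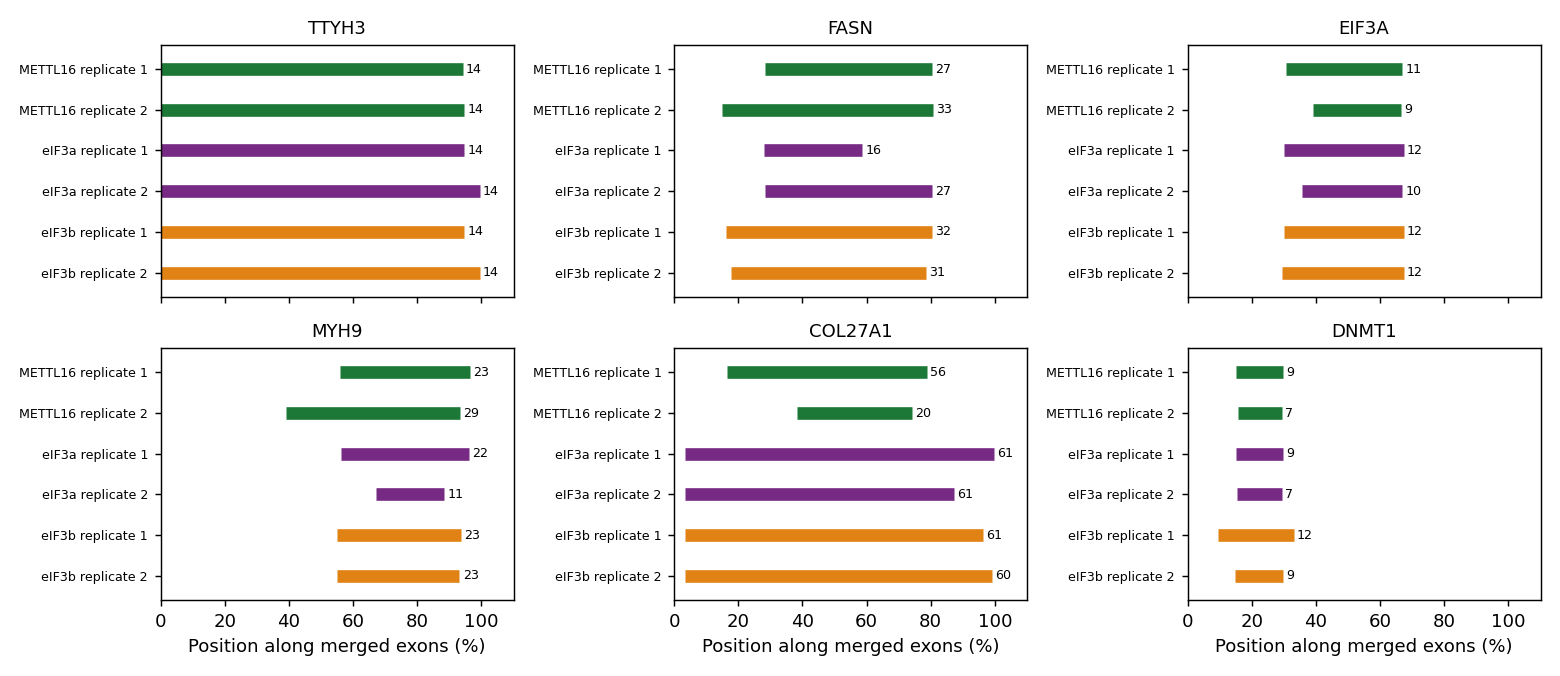
Span of the longest member in each of the 6 lists along the merged exons of 6 genes, from the 5′ end (0%) to the 3′ end (100%), with the block count beside each bar. TTYH3 is covered throughout in every list, FASN, EIF3A and MYH9 over the same part with differing ends, COL27A1 from 20 to 61 blocks, and DNMT1 over a short part between 9.6% and 33.0%.

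The most blocks were joined on COL27A1 (chromosome 9, 114155537 to 114312511, plus strand), which has 61 exons. Both eIF3a lists joined all 61, over 7301 and 5566 bases, and the eIF3b lists joined 61 and 60, over 6822 and 7211 bases. METTL16 joined 56 blocks over 3172 bases in replicate 1 and at most 20 blocks over 1288 bases in replicate 2, where the gene was divided over 4 members. The eIF3a and eIF3b members of COL27A1 were all longer than the METTL16 members. Enrichment was 19.2-fold and 21.4-fold for METTL16, 23.6-fold and 26.7-fold for eIF3a, and 30.1-fold and 46.2-fold for eIF3b. In METTL16 replicate 2 the largest block count of the list, 36, was on SCRIB, the gene of a cell polarity protein.

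The blocks of members on collagen genes were short, as in the COL27A1 and COL9A2 sequences above, although the COL27A1 members as a whole were long. The 257 different internal blocks of 58 members on 8 collagen genes had a median of 54 bases, 73 were exactly 54 bases long, and 73.5% were multiples of 9. In the members of all other genes, internal blocks had a median of 118 bases and 12.9% were multiples of 9. COL9A2 members had 626 and 567 bases for METTL16, 1163 and 954 for eIF3a, and 2146 and 1788 for eIF3b, so the METTL16 values were the lowest and the eIF3b values the highest.

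DNMT1 (chromosome 19, 10133342 to 10231286, minus strand) had the fewest bases per block among the genes with a member in all 6 lists. Its members joined 7 to 12 blocks over 480 and 360 bases for METTL16, 480 and 420 for eIF3a, and 660 and 510 for eIF3b. The lists overlapped in size, and 360 bases on exons 7 to 13 of 41 were common to all 6. RECQL5, a DNA helicase gene, is a contrast: it had a member in every list, of 181 to 719 bases, but no base was common to the 6, because the eIF3a replicate 1 member lay on exons 16 to 20 and the others on exons 8 to 15. A gene counted in every list need not carry the same region in every list. STK39, a kinase that regulates ion cotransporters, had 239 common bases.

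Among genes with members in both METTL16 lists and in no other, the longest were ARID3A, FN3K and FECH. FECH, which encodes ferrochelatase, the last enzyme of heme synthesis, had members of 901 and 1111 bases on exons 2 to 11, enriched 12-fold and 9.08-fold. In eIF3b replicate 1 its longest peak had 241 bases, in eIF3a replicate 1 it had 121, and the remaining lists had no peak on it. FN3K, a fructosamine kinase gene, had members of 1254 and 807 bases, but peaks of up to 508 bases and 29.4-fold in the eIF3b lists. ARID3A, a DNA-binding protein gene, had members of 1107 and 2212 bases in METTL16, and in 3 of the other lists it had peaks of 4 blocks, 1 block short of the choice, over exons 6 to 9 with 1077 to 1345 bases.

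For eIF3a, the longest of the 32 such genes were NPHP4, FAM193A and NUP214, and in all 3 the members of replicate 2 were far longer. NPHP4, a gene of the ciliary transition zone, had 1556 bases in replicate 1 and 3320 in replicate 2, enriched 12.1-fold and 90.3-fold. FAM193A had 750 and 3867 bases. NUP214, a nuclear pore gene, had 719 and 3501 bases, on exons 11 to 15 and exons 18 to 33, so its longest members in the replicates did not overlap. For eIF3b, ZBTB40, a zinc finger gene, had members of 2249 and 1290 bases, and CEP164, a gene of the centriole appendages, had 1800 and 750. Each of these 5 genes had shorter peaks in at least 3 of the other 4 lists.

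Gene groups were read against the 21.9% of genes with a peak that had a member in at least 1 list, and against the exons per gene, with a median of 10 over those genes. Among chromatin remodellers and histone modifiers, 34 of 39 genes with a peak had a member (median 35 exons), 5 of them in all 6 lists. Cytoskeletal and giant coding transcripts had members on 17 of 24 (median 42 exons). PLEC, the gene of the linker plectin, had members of 1380 to 7882 bases, with the shortest and the least enriched, 5.71-fold, in eIF3a replicate 2 and the most enriched, 124-fold, in METTL16 replicate 2. Collagens, laminins and basement membrane genes had members on 12 of 19 (median 42 exons), among them AGRN, with only 31 bases common to the 6 lists, and COL18A1, with 1201.

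Other groups had fewer exons per gene and lower shares. Spliceosome genes had members on 21 of 35 (median 16 exons), with SRRM1, a splicing coactivator, in 5 lists at 1642 to 2866 bases and a peak of 3 blocks in METTL16 replicate 2. Nucleolar ribosome biogenesis genes had members on 20 of 42 (median 16 exons), and NCL, the gene of nucleolin, had them in 4 lists over 1075 to 1314 bases. Of the sterol and fatty acid synthesis genes, 7 of 18 had a member (median 11 exons), and SREBF2, the transcription factor of sterol synthesis, had one in 4 lists. Of the DNA replication genes, 8 of 25 had one, and of the aminoacyl-tRNA synthetases 6 of 20, led by AARS1 with 748 to 837 bases in 5 lists. Of the RNA polymerase II transcription genes, 6 of 23 had one (median 26 exons).

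Of the eIF3 subunits, 4 of 12 had a member: EIF3A in 6 lists, EIF3J and EIF3C in 4 each and EIF3B in 1. EIF3C has a near-identical copy in the genome, so its peaks are uncertain. Secreted plasma proteins of the liver had the lowest share, 3 of 29 (median 14 exons), with C3, the complement component, in both METTL16 lists at 1.72-fold and 1.88-fold. The labelled cell type was checked with 10 hepatocyte genes: 9 had a peak, and HNF4A, a transcription factor of hepatocytes, had a member in 1 list. These are enrichments over input, not levels of expression, and an abundant mRNA needs no peak.

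GC content was the remaining feature that the block count did not use. The coding bases of the members had a mean GC content of 59.2% and 60.4% in the METTL16 lists, 54.1% and 52.5% in the eIF3a lists, and 57.9% and 53.7% in the eIF3b lists. The eIF3b replicates lay apart, the second within the range of the eIF3a lists. Compared with the coding bases of peaks of 1 to 4 blocks in the same list, GC was lower in 6 of 6 lists, by a mean of -0.842 percentage points ± 0.717 (SD, n = 6; exact sign-flip permutation test, two-sided, p = 0.03125, the smallest possible, and 0.156 after adjustment over the 5 tests). The direction depended on the comparison. Against peaks of 2 to 4 blocks, the mean difference was 0.600 percentage points, above 0 in 3 lists and below 0 in 3 (exact permutation p = 0.25).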

How the data were processed

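RIP-seq had been done on 12 samples of HepG2 cells, 6 RIP samples and 6 inputs. Per the study's methods, STAR was used by the authors for mapping to GRCh38, and exomePeak with its default settings for peaks, 1 list per RIP sample. Software versions, annotation and the pairing of inputs were not given in the sources used here. The authors deposited for each peak its blocks, a gene name, a p-value, log10 scores of the p-value and adjusted p-value, and the fold enrichment, a ratio of RIP over input. The deposited lists hold no read numbers, so the depth behind each peak is unknown and no counting interval is given. The inputs were not analysed as separate libraries.

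Block counts, summed lengths and strand-aware overlaps were computed from the lists (Python 3.11.15, numpy 2.4.6, pandas 2.3.3, matplotlib 3.10.9), with starts shifted to count from 1. By name and position, 10291 gene names matched a current GENCODE release 44 symbol and 466 an older one, and 172 names had at least 1 peak without a match. Of the members, 14 did not match and 6118 were placed on exons (at least 50% of their bases). GC was taken over peaks with at least 50 coding bases. Lists were compared with exact permutation tests over the 15 ways to form 3 pairs of lists, with an exact sign-flip test over 64 sign patterns for GC, and with Benjamini-Hochberg adjustment over 5 tests. The code for intervals, positions and permutation tests was checked on small cases with known answers, including random stretches of annotated genes. The study describes its replicates as biological, 2 per sequenced RNA sample, while nothing in the labels ties them to separate cultures. The p-values measure the spread between lists, which may be partly technical.

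Named genes were the 10 longest with a member in all 6 lists, the 3 longest per protein with members in both of its lists alone, the largest block count per list, the 5 with the fewest bases per block in all 6 lists, METTL16, EIF3A, EIF3B and IGF2, and up to 4 per gene list. One eIF3b gene with a close paralogue, and some genes of the lists, are not reported here. The members and gene lists were chosen with earlier results of these data known. Alternatives were 4 or 8 blocks, at least 4-fold enrichment, the 5000 smallest p-values per list, blocks under 10 bases ignored, at least 500 bases, genes of 5 or more exons, the canonical transcript, other GC comparisons, 50% recovery, the replicate block and each list left out.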

Additional observations from a re-analysis of the deposited data

Results flagged for a closer look

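The GC content of the coding bases of the members differed in sign between METTL16 and eIF3a in 2 comparisons. Against peaks of 2 to 4 blocks in the same list, it was higher by 1.52 and 1.72 percentage points in the METTL16 replicates, and the differences in the eIF3a replicates were -0.228 and -0.253. Against the rest of the coding sequences of the same genes, the differences were 0.466 and 0.755 for METTL16 and -0.816 and -0.880 for eIF3a. These lists were singled out because both lists of one protein lay on one side of 0 and both of the other on the opposite side, and the difference between the proteins was not tested. The eIF3b replicates split, with 1.18 and -0.342 in the first comparison and 0.638 and -0.417 in the second. The mean GC content of the members themselves moved with these values across the lists, and its part was not tested.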

How the results depend on the processing

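Results were recomputed 106 times in all (12 results). Of these values, 83 kept direction and side of the threshold or stayed within the set limit, 9 of GC passed to the other side of 0.05, 10 counts moved by over 1.5 times and 4 values reversed. Some of the 83 could not change, since neither the replicate block nor leaving out an eIF3b list alters a difference between eIF3a and METTL16. In the comparisons of the proteins p cannot fall below 0.05, so only the direction could change. The GC difference from other peaks was 0.293 with at least 8 blocks and 0.600 against peaks of 2 to 4 blocks. It was -0.734 with blocks under 10 bases ignored, -0.0570 for members of at least 500 bases and -0.0424 against the rest of the same coding sequences (chosen after seeing the data), and -0.980 to -0.703 without each list, where 5 lists cannot give p under 0.0625. Genes with members in both replicates of METTL16, eIF3a and eIF3b numbered 523, 633 and 1127 with at least 4 blocks, 56, 101 and 181 with at least 8, and 148, 150 and 319 with at least 4-fold enrichment. These counts need both lists of a protein, so no list could be left out. Genes with a member in all lists numbered 159 without eIF3a replicate 2 (chosen after seeing the data). Without each list in turn, eIF3a minus METTL16 ranged from -0.483 to 6.06 percentage points for the share of peaks and from -2 to 119.5 bases for the median length, the low ends without eIF3a replicate 2 and the high ends without eIF3a replicate 1. METTL16 minus eIF3a in position ranged from 3.05 to 10.5 percentage points, the coding share difference from 1.24 to 1.66, and the excess in recovery from 16.6 to 24.5. Among the 5000 peaks with the smallest p-values, that excess was 7.39.

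With the replicate number as a block, differences in share (2.79), length (58.8), position (6.75) and coding share (1.45) had exact permutation p-values of 0.667, 0.667, 0.333 and 0.167. The block alters the p-values and not the differences. The smallest exact permutation p possible with the block is 0.167, which the coding share reached. Replicate 1 lay above its protein mean in 1 of 3 proteins for the share and in 2 of 3 for the other measures. With 3 proteins, these counts cannot show whether same-numbered lists deviate together. The main tests did not take the numbers as pairs, and p-values with and without the block are both given.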
